A study of Mus musculus with 3 samples.

Results

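The mitochondrially encoded genes of the mouse were followed in macrophages grown from bone marrow: all 37 genes whose symbol starts with mt-, of 55450 genes present in both kinds of deposited table. They are 13 protein-coding genes, 2 ribosomal RNA (rRNA) genes and 22 transfer RNA (tRNA) genes. The primary macrophages came from C57BL/6J mice, an inbred strain, and all 3 samples belong to 1 group. Per the labels, they received 100 ng/ml lipid A for 12 hours, were washed and left for 12 hours, and were exposed anew, at 100 ng/ml, for 180 minutes. Bacterial lipopolysaccharide is anchored in its membrane by lipid A, which Toll-like receptor 4 senses; other label fields name the agent lipoprotein A, of type protein. The labels number the samples as biological replicates 1, 2 and 3 and give all the same donor record, and age and sex were not collected. The spread between these 3 samples may thus be technical. The main p-values below rest on how a difference between the kinds of table varies over these 3 samples. No unexposed or singly exposed cells were analysed here, so no statement on the effect of lipid A is made.

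Mitochondrial DNA is a small circular genome that is transcribed from both strands into long precursors. Most messenger and ribosomal RNAs are flanked by tRNAs, and excision of the tRNAs frees them. Several of the messenger RNAs gain the last bases of their stop codon only through the poly(A) tail. All 13 proteins are membrane subunits of the respiratory chain or of ATP synthase, and they assemble with subunits encoded in the nucleus. Stretches of mitochondrial DNA have also been inserted into nuclear chromosomes during evolution, and an annotated nuclear copy of this kind can be given sequencing reads that match both places.

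Each library was quantified by the authors in 2 ways, once from a transcriptome alignment and once directly from the FASTQ files; these are called the alignment table and the FASTQ table. Mouse genes held 23377091, 36824106 and 37685712 counts in the alignment table and 30663074, 40522722 and 40851328 in the FASTQ table in replicates 1, 2 and 3. The alignment total was thus 0.762, 0.909 and 0.923 times the FASTQ total, and replicate 1, whose FASTQ table was made from 6 files against 4 for each of the others, stood apart. All 10 macrophage markers, among them Lyz2, Csf1r and Adgre1, reached 1 TPM (a level per effective length, scaled to the same sum in every library) in all 3 libraries, with a summed TPM between 18762 and 21331. Of the other cell types examined, 2 of 5 neutrophil markers reached 1 TPM, with a summed TPM between 10.57 and 97.5, and none of the 3 T cell, 3 B cell and 3 fibroblast markers did, with a summed TPM of at most 1.13 per list. The neutrophil marker Ly6g was at 0 in all libraries.

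Much of the middle of the mitochondrial genome has an annotated nuclear copy. A nuclear copy was defined as a gene elsewhere of whose 31-base sequences at least 10% occur in a member, and there were 14; in 7 of them the share was at least 50%. These 7 pseudogenes lie side by side on the minus strand of chromosome 1 (mm10, annotation M21), chr1:24611535-24616197, a span of 4663 bases. The members they match occupy bases 6381 to 11042 of the mitochondrial genome, 4662 bases. The start-to-start distances between neighbours were equal in both places except between mt-Nd3 and mt-Nd4l, which are 418 bases apart in the mitochondrial genome and 419 on chromosome 1; mt-Tr, the tRNA for arginine, lies in that interval.

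In these pseudogenes, 5 members are matched nearly from end to end. Gm28661 matches mt-Co2 over 681 of 684 bases, Gm10925 matches mt-Atp6 over 678 of 681, Gm28437 matches mt-Co3 over 783 of 784 and Gm10222 matches mt-Nd4l over 294 of 297, all without a difference. Gm28438 matches mt-Nd3 over 345 of 348 bases with 1 substitution. A further 2 members are matched in part: Gm28439 holds the first 876 of 1378 bases of mt-Nd4 without a difference, and Gm29216 faces the last 492 of 1545 bases of mt-Co1 with 6 substitutions. mt-Atp8 lies inside the block but has no annotated copy, and nuclear sequence outside the annotated transcripts was not analysed here.

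The few bases that distinguish members from copies are shown because reads can be assigned to one or the other only where these occur. The 5 annotated copies of nearly whole members end before the last bases of the member, so that mt-Co2 is told from Gm28661 only by the 3 bases in capitals and mt-Co3 from Gm28437 only by the final T in capitals (last 40 bases, 5′ to 3′, plus strand of the mitochondrial genome and minus strand of chromosome 1).
mt-Co2: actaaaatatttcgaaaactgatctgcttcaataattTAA
Gm28661: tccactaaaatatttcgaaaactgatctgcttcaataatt
mt-Co3: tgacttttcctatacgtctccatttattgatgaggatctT
Gm28437: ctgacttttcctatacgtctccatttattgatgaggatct

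In the first 40 bases of mt-Nd3 and Gm28438 the only internal difference of that pair, T3C (the base of the member, the position from 1 at its first base, then the base of the copy), is in capitals; in the mitochondrial genome this is base 9461. Gm29216 differs from mt-Co1 within its first 13 bases only, at T1056A, C1057T, A1059G, A1060G, C1062A and A1066T in the numbering of mt-Co1. The capitals in the pair from mt-Co1 base 1054 onwards mark these 6 substitutions.
mt-Nd3: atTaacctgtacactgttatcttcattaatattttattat
Gm28438: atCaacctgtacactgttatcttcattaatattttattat
mt-Co1: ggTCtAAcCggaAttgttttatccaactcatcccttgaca
Gm29216: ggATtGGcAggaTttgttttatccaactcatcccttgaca

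Counted in 31-base sequences, mt-Co3 has 1 that its copy lacks, mt-Co2, mt-Atp6 and mt-Nd4l have 3 each and mt-Nd3 has 6. By contrast, 502 of the 1348 of mt-Nd4 and 1066 of the 1515 of mt-Co1 are absent from their copies. The remaining 6 protein-coding members and both rRNAs have no copy among the 7, and they are called members without a copy below. Some of the other 7 copies do share sequences with mt-Nd2, mt-Nd5 or mt-Rnr2. Each of those held at most 2.00 counts in any library of either table.

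The members held a small share of all counts. They took 1.14%, 1.45% and 1.30% of the counts in replicates 1, 2 and 3 of the alignment table (1.29% ± 0.152, SD, n = 3) and 1.26%, 1.62% and 1.47% of the FASTQ table (1.45% ± 0.182). Replicate 1 was lowest and replicate 2 highest in both tables. With the counts of the 7 copies added, the share was 1.55%, 2.12% and 1.86% in the alignment table and 1.48%, 2.06% and 1.82% in the FASTQ table. Of the counts of members and all 14 copies together, the copies held 26.4%, 31.7% and 30.3% in the alignment table (29.5% ± 2.77) and 14.8%, 21.2% and 19.3% in the FASTQ table (18.4% ± 3.29). In every library the copies thus held more in the alignment table than in the FASTQ table. Nearly all of this lay in the 7 copies on chromosome 1; the other 7 copies held 8.19, 22.1 and 19.1 counts in the alignment table and 59.2, 43.4 and 35.3 in the FASTQ table, most of them in Gm13340 and Gm13341 on chromosome 2, while AC124578.3 had 1, 2 and 1 in the FASTQ table and 0 in the alignment table.

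The difference between the tables was tested per gene with edgeR's quasi-likelihood test, with the library as a block, over 13565 genes with a mean of at least 10 counts. The test asks whether a gene's part of the counts differs between the tables in a way that repeats over the 3 libraries, and it says nothing on biology. In its results, more and fewer counts mean counts after scaling between libraries, except where no scaling is named. Of 18 members tested, 5 had more counts in the alignment table and 9 had fewer (Benjamini-Hochberg adjusted p under 0.05), against 6.61% and 12.1% of all genes tested. Over all genes these are 896 and 1636 genes, where DESeq2 gave 1066 and 1122 and counts without scaling 252 and 3292. Of the 9, the tRNA genes mt-Tp, mt-Tc and mt-Ts1 passed the filter on low counts only through the FASTQ table and so had to differ. The 5 with more counts (mt-Rnr1, mt-Rnr2, mt-Nd1, mt-Nd5 and mt-Cytb) had log2 ratios of alignment to FASTQ counts between 0.09 and 0.12, beside a median of 0.03 over all genes tested, and between -0.16 and -0.12 without scaling, where that median was -0.21. Without replicate 1 none of the 5 passed (0 members by edgeR's unadjusted p under 0.05), nor without replicate 2 (3 by the unadjusted p). On all libraries DESeq2 called 8 and limma 5. The 5 of limma held mt-Atp8 in place of mt-Nd5. The same exchange was seen with library totals in place of TMM scaling and with all genes with a mean count above 0. Without the block for the library, 0 members had more (0 by the unadjusted p) and 3 had fewer, namely mt-Atp6, mt-Nd3 and mt-Tp. With posterior mean counts in place of expected counts, an alternative chosen after the data had been seen, 5 members had more and 7 had fewer, against 7.11% and 12.2% of 13586 genes, and mt-Co2 and mt-Co3 no longer passed.

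**Figure D1:**
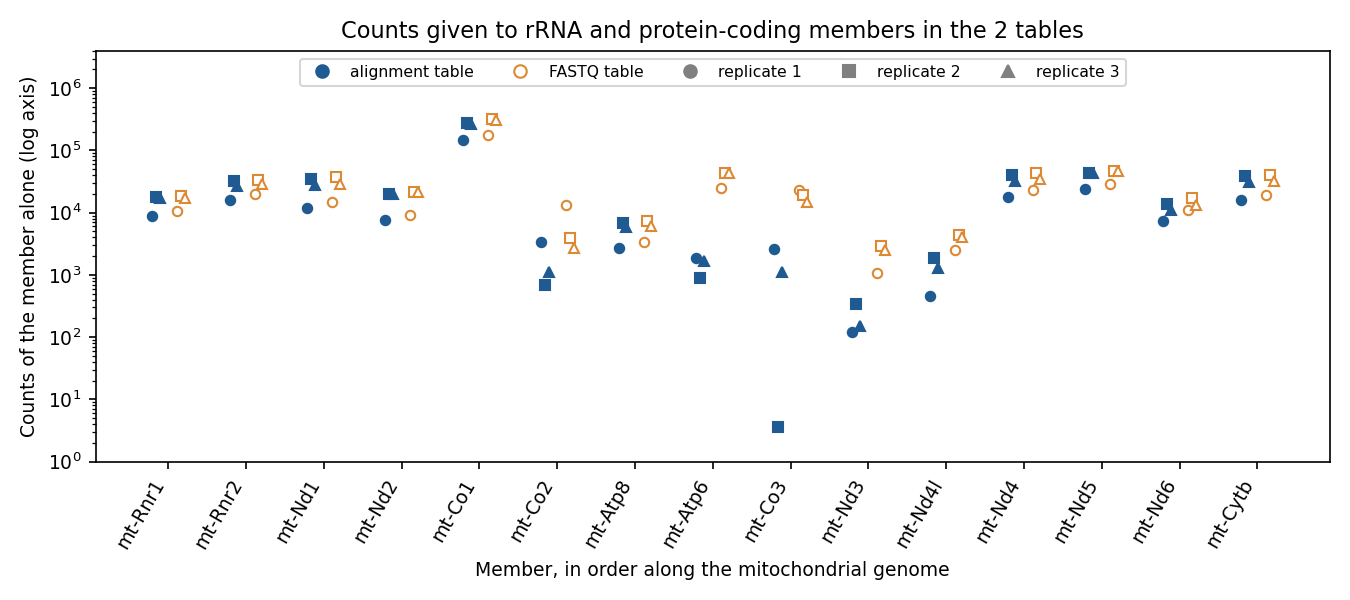
Counts of the 2 rRNA and 13 protein-coding members in each library, on a log axis, in the alignment table (filled blue) and the FASTQ table (open orange); marker shapes are replicates. By these expected counts mt-Co2, mt-Atp6, mt-Co3, mt-Nd3 and mt-Nd4l lie lower in the alignment table in all 3 libraries, with mt-Co3 in replicate 2 at 3.53 counts.

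Among subunits of cytochrome c oxidase (complex IV), mt-Co2 and mt-Co3 had fewer expected counts in the alignment table, and with posterior mean counts the same test was not passed. mt-Co2 (ENSMUSG00000064354.1, chromosome M, bases 7013 to 7696, plus strand) encodes the oxidase subunit that accepts electrons from cytochrome c. It was given 3409, 695 and 1098 expected counts in replicates 1, 2 and 3 of the alignment table and 13032, 3913 and 2720 in the FASTQ table. Its copy Gm28661 was given 32031, 86041 and 74346 counts in the alignment table and 29492, 85193 and 74401 in the FASTQ table. The copy therefore held most of the summed counts in both tables, from 90.4% to 99.2% in the first and from 69.4% to 96.5% in the second. The log2 ratio of alignment to FASTQ counts of mt-Co2 alone was -1.65 ± 0.15 (SE, n = 3, edgeR adjusted p = 7.49e-06), with fewer expected counts in the alignment table in 3 of 3 libraries. The alignment table also carries a posterior mean count for each gene, and for mt-Co2 it was 6117, 3622 and 3569, higher than the FASTQ count in replicate 3. With posterior mean counts the log2 ratio was -0.04 ± 0.15 and did not pass. Replicate 1 had the most counts of mt-Co2 of the 3 libraries in both tables, although its total was the lowest.

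mt-Co3 (ENSMUSG00000064358.1, bases 8607 to 9390, plus strand) encodes another core subunit of the oxidase. It was given 2592, 3.53 and 1120 counts in the alignment table and 23541, 19416 and 14708 in the FASTQ table. Gm28437 was given 23168, 78282 and 66790 counts in the alignment table and 7422, 61370 and 55017 in the FASTQ table. The division between the pair changed with the library as well as with the table, since the copy's part in the FASTQ table was 24.0%, 76.0% and 78.9%. The posterior mean counts of mt-Co3 were 10301, 24614 and 22399, with posterior SDs of 2313, 4058 and 2420. The expected count of 3.53 in replicate 2 therefore stood beside a posterior mean of 24614 for the same gene and library. The log2 ratio of expected counts was -4.23 ± 0.76 (SE, n = 3, edgeR adjusted p = 0.00203), with fewer counts in the alignment table in 3 of 3 libraries. It was -4.83 without replicate 1, -3.16 without replicate 2 and -5.25 without replicate 3. With posterior mean counts, which exceeded the FASTQ counts in replicates 2 and 3, it was 0.17 ± 0.20 and did not pass. The expected counts did not pass when library totals replaced the scaling of edgeR, or without the block.

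mt-Atp6 (ENSMUSG00000064357.1, bases 7927 to 8607, plus strand) encodes the ATP synthase subunit that forms part of the proton channel. It was given 1885, 893 and 1687 counts in the alignment table and 25181, 43630 and 43488 in the FASTQ table. Gm10925 was given 20676, 52611 and 45781 counts in the alignment table and 5088, 12790 and 6190 in the FASTQ table. The member was the minor holder in the alignment table, where the copy had 91.6%, 98.3% and 96.4% of the sum, and the major one in the FASTQ table, where the copy had 16.8%, 22.7% and 12.5%. The log2 ratio of the member was -4.42 ± 0.31 (SE, n = 3, edgeR adjusted p = 9.09e-07), with the same direction in 3 of 3 libraries. It passed under every alternative that was run on the member alone, and was -3.13 with posterior mean counts.

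Of the complex I subunits, mt-Nd3 and mt-Nd4l had fewer counts in the alignment table, by expected and by posterior mean counts. mt-Nd3 (ENSMUSG00000064360.1, bases 9459 to 9806, plus strand) was given 121, 336 and 149 counts in the alignment table and 1064, 2893 and 2540 in the FASTQ table. Its copy Gm28438 was given 875, 5281 and 5559 counts and 154, 2930 and 3327, respectively. The summed level in replicate 1 was far below the other two in both tables, at 996 counts against 5617 and 5708 in the alignment table. The log2 ratio of mt-Nd3 was -3.22 ± 0.13 (SE, n = 3, edgeR adjusted p = 7.49e-09), and it too passed under every alternative that was run on the member alone.

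mt-Nd4l (ENSMUSG00000065947.3, bases 9877 to 10173, plus strand) was given 457, 1859 and 1309 counts in the alignment table and 2548, 4420 and 4064 in the FASTQ table. Gm10222 was given 1405, 1793 and 1969 counts in the alignment table and 0 in all 3 libraries of the FASTQ table. All counts of this pair thus went to the member in the FASTQ table. Every base of Gm10222 is also found in mt-Nd4l, so this 0 sets no limit on reads from the copy. The log2 ratio of mt-Nd4l was -1.47 ± 0.12 (SE, n = 3, edgeR adjusted p = 3.40e-06), with fewer counts in the alignment table in 3 of 3 libraries.

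Neither of the 2 members matched in part by a copy passed edgeR's test of a difference between the tables, although DESeq2 called mt-Nd4 and edgeR without scaling called mt-Co1. mt-Co1 (ENSMUSG00000064351.1, bases 5328 to 6872, plus strand) encodes the catalytic subunit of the oxidase and had the most counts of any member, 146349, 280182 and 267308 in the alignment table and 180009, 316934 and 303818 in the FASTQ table. Its partial copy Gm29216 held 10.6%, 7.66% and 6.27% of the summed counts in the alignment table and 12.1%, 4.37% and 1.5% in the FASTQ table. mt-Nd4 was given 18080, 39971 and 32480 counts in the alignment table and 22902, 42593 and 34572 in the FASTQ table. Its copy Gm28439 was at 0 in all libraries of the alignment table and at 81.7, 0 and 0 in the FASTQ table, even though every base of that copy is also found in mt-Nd4. The log2 ratio of alignment to FASTQ counts was 0.02 ± 0.03 for mt-Co1 and 0.07 ± 0.03 for mt-Nd4 (SE, n = 3).

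**Figure D2:**
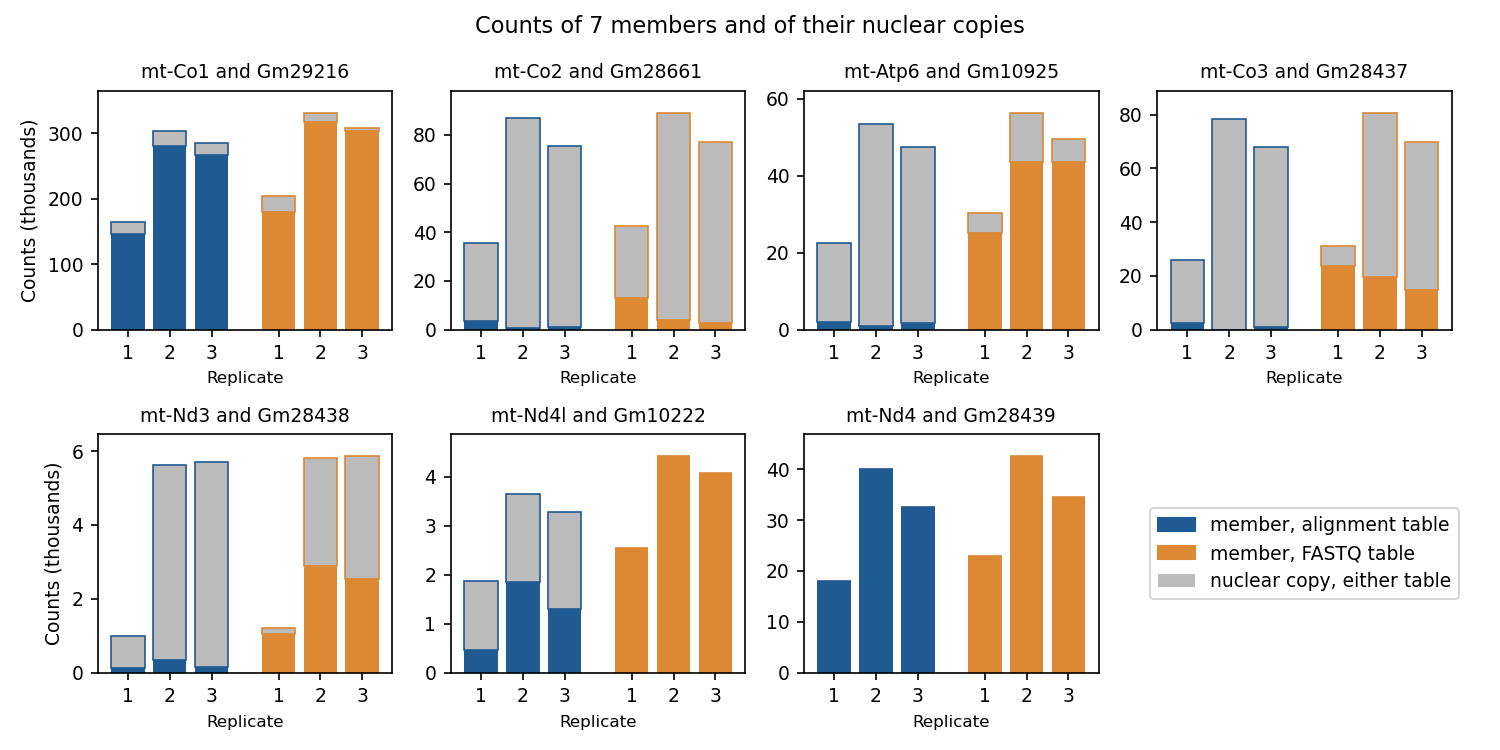
Counts of the 7 members that have a nuclear copy on chromosome 1 (coloured) with the copy's counts stacked on top (grey), by replicate, for the alignment table (left 3 bars, blue) and the FASTQ table (right 3 bars, orange). The heights of the stacks are alike between the tables, while the coloured part of mt-Atp6 fills little of the stack in the first and most of it in the second.

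Adding the copy's counts to the member brought the tables close to each other. The summed counts of mt-Co2 in the alignment table were 0.833, 0.973 and 0.978 times those in the FASTQ table, where the member alone was at 0.262, 0.178 and 0.404. For mt-Co3 the ratio of sums was 0.832, 0.969 and 0.974, for mt-Atp6 0.745, 0.948 and 0.956 and for mt-Nd3 0.818, 0.965 and 0.973. These ratios lay within the range of the 8 coding and rRNA members without a copy, 0.656 to 0.832 in replicate 1, 0.820 to 0.967 in replicate 2 and 0.823 to 0.973 in replicate 3, or just above its upper end. mt-Nd4l differed a little more, with ratios of 0.731, 0.826 and 0.807.

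The edgeR test with the copies added was chosen after the data had been seen. After scaling, 8 members had more counts in the alignment table and 4 had fewer, against 7.20% and 12.2% of 13558 genes. Of the 4, the tRNA genes mt-Tp, mt-Tc and mt-Ts1 again had to differ. The log2 ratios of mt-Co2, mt-Co3 and mt-Nd3 were then 0.13, 0.13 and 0.11, now with more counts in the alignment table after scaling. Before scaling, their summed counts were lower in the alignment table in every library. The log2 ratios of mt-Atp6 and mt-Nd4l were 0.06 and -0.10 and did not pass. Among coding and rRNA members, mt-Nd6 was the only one that passed with fewer counts in the alignment table after scaling. Across the 15 coding and rRNA members the log2 ratios ran from -4.42 to 0.12 for the member alone and from -0.15 to 0.13 with the copies added.

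**Figure D3:**
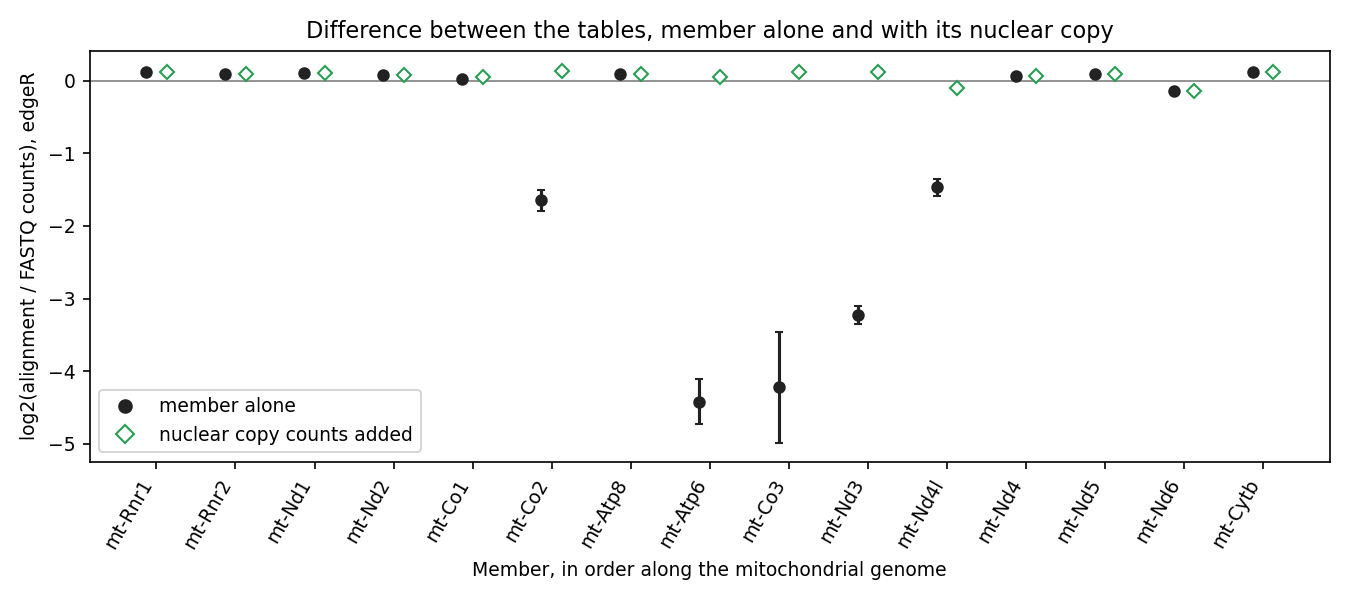
Log2 ratio of alignment (expected) to FASTQ counts from edgeR with its SE, for each rRNA and protein-coding member alone (black circles) and with the counts of its nuclear copy added (green diamonds). The 5 members matched nearly whole by a copy lie between -4.42 and -1.47 alone and between -0.10 and 0.13 with the copy added, and the other members hardly move.

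After scaling, 5 of the 8 coding and rRNA members without a copy passed with more counts in the alignment table. Their log2 ratios lay between 0.09 and 0.12, and mt-Nd6 passed with fewer. Before scaling, all 8 had fewer counts there. The highest ratios to the FASTQ counts were 0.832, 0.967 and 0.973 in replicates 1, 2 and 3. mt-Nd6 (chromosome M, bases 13552 to 14070) encodes a complex I subunit and is the only protein-coding member on the minus strand; in human cells its messenger RNA is known to lack the poly(A) tail that others carry. It was given 7255, 13943 and 10968 counts in the alignment table and 11065, 17004 and 13327 in the FASTQ table. The ratios of 0.656, 0.820 and 0.823 were the lowest of the 8 members without a copy in each library. The log2 ratio was -0.15 ± 0.03 (SE, n = 3, edgeR adjusted p = 0.00544), and without replicate 1 or without the block it did not pass. mt-Nd6 overlaps mt-Nd5 on the opposite strand by 14 bases, and no source used here says whether counting used strand, so reads from antisense RNA cannot be told apart from its own.

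Among the members without a copy, mt-Cytb, the only mitochondrially encoded subunit of complex III, was given 15769, 38778 and 31645 counts in the alignment table and 18956, 40154 and 32655 in the FASTQ table. The complex I subunit mt-Nd1 was given 11906, 35205 and 27829 counts and 14599, 36848 and 29065, respectively. The larger complex I subunit mt-Nd5 was given 23918, 43319 and 43919 and 29374, 46246 and 46444. For these 3 the 2 tables kept the order of the libraries, and replicate 1 was lowest in both. mt-Nd2, a further complex I subunit, was given 7486, 20118 and 19637 counts and 9235, 21631 and 21091.

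Both rRNAs were detected although the libraries were made from polyadenylated RNA; mitochondrial rRNAs are known to carry short A tails. mt-Rnr1, the RNA of the small ribosomal subunit, was given 8847, 17932 and 17020 counts in the alignment table, and mt-Rnr2, that of the large subunit, 15905, 32092 and 27116. Per length the pair was at a similar level, with mt-Rnr2 at 1.08, 1.08 and 0.962 times mt-Rnr1. mt-Rnr2 was at 0.0949, 0.103 and 0.0929 times the level of mt-Co1 per length. The rRNAs thus stood below most messenger RNAs in these libraries, a level that holds for RNA selected by its tail.

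To compare members with each other, counts of the member and its copy were divided by the annotated length in kilobases and scaled to counts per 1e+06 in the library, and all levels in this paragraph are on that scale in the alignment table. mt-Co1 was highest at 4533, 5334 and 4898 (4922 ± 401, SD, n = 3). mt-Co2 followed at 2217, 3444 and 2927 (2863 ± 616), below mt-Co1 in all 3 libraries. mt-Co3 was at 1406, 2712 and 2299 (2139 ± 668) and mt-Atp6 at 1417, 2134 and 1850 (1800 ± 361), and these neighbours changed places in replicate 1. The 4 were thus the highest, and mt-Atp6 lay above the next member in all 3 libraries.

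A plateau of 6 members followed, all from complexes I, III and V: mt-Nd1 (768 ± 234), mt-Cytb (748 ± 166), mt-Atp8 (747 ± 179), mt-Nd4 (658 ± 117), mt-Nd6 (629 ± 88.7) and mt-Nd5 (615 ± 46.9), on the same scale. In this stretch neighbours kept their order in all 3 libraries only between mt-Atp8 and mt-Nd4. mt-Rnr2 (479 ± 63.8), mt-Rnr1 (460 ± 58.0) and mt-Nd2 (446 ± 119) came below, and mt-Nd3 (332 ± 182) and mt-Nd4l (298 ± 33.2) were lowest. In the FASTQ table the first 5 places were the same, and mt-Nd4l and mt-Nd3 were again last. The place of mt-Nd4l depends on dividing by annotated length. By the deposited TPM of members alone mt-Nd4l ranked 6 in the FASTQ table and 9 in the alignment table, and mt-Nd3 ranked 14 and 15. These ranks leave out the copies. In the alignment table Gm28438 alone was at 534, 2210 and 2508 TPM, beside 72.3, 137 and 65.4 for mt-Nd3. In replicates 2 and 3 this copy lay above mt-Nd1, at 2005 and 1575 TPM. With its copy, the low place of mt-Nd3 in replicates 2 and 3 thus also depends on dividing by annotated length. The counts of mt-Co1 with its copy made up 45.2%, 38.9% and 40.7% of all counts of members and the 7 copies in the alignment table.

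**Figure D4:**
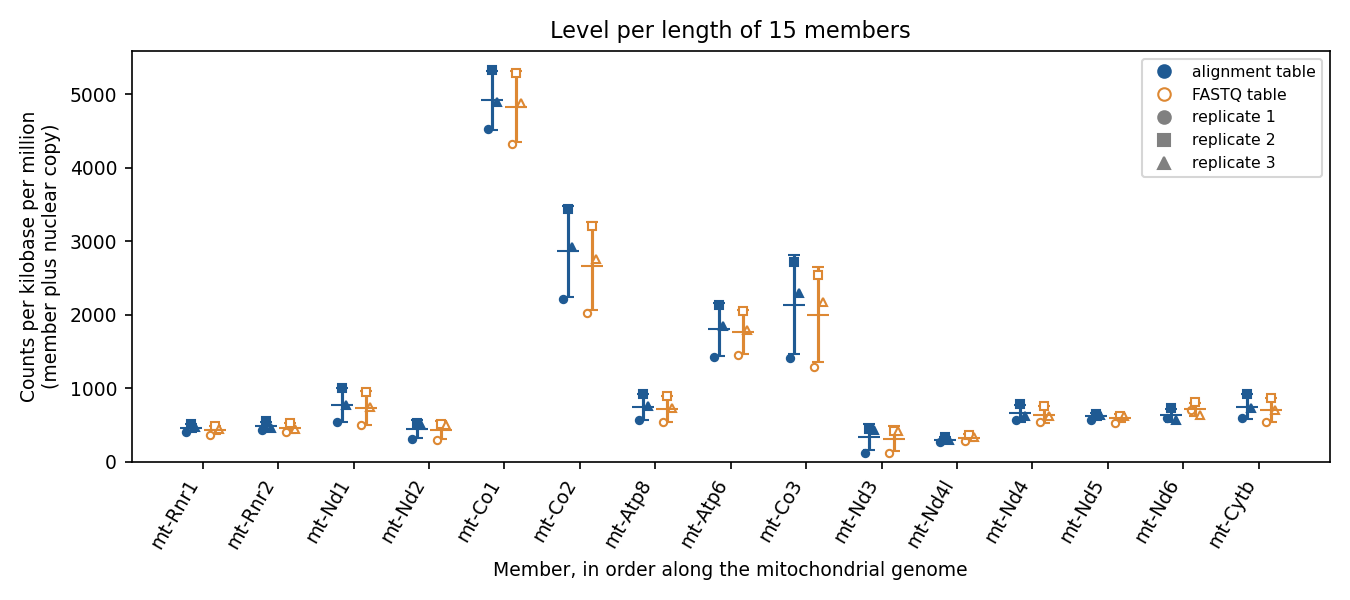
Counts per kilobase of annotated length and per 1e+06 counts, member plus nuclear copy, for the 15 rRNA and protein-coding members in the alignment table (filled blue) and the FASTQ table (open orange); dashes and bars give the mean and SD over 3 libraries and markers the replicates. mt-Co1, mt-Co2, mt-Co3 and mt-Atp6 stand above the other 11 members in both tables.

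The deposited TPM values of members alone gave another order, in which mt-Atp8 was first in the alignment table and second to mt-Co1 in the FASTQ table. mt-Atp8 (chromosome M, bases 7766 to 7969, plus strand) encodes a small ATP synthase subunit and overlaps the start of mt-Atp6 by the 43 bases in capitals below, with the bases before and after in lower case; 13 of the 31-base sequences are shared by the pair.
mt-Atp8 and mt-Atp6: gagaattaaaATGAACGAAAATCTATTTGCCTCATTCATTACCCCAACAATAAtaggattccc
mt-Atp8 was given 2699, 6933 and 5784 counts in the alignment table and 3381, 7347 and 6025 in the FASTQ table. Its TPM was 9822, 20517 and 22382 in the alignment table and 2307, 4695 and 4738 in the FASTQ table. Between the tables the counts stood at 0.798, 0.944 and 0.960 times each other, alignment over FASTQ, and the TPM at 4.26, 4.37 and 4.72 times.

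TPM divides counts by an effective length, the number of places where a fragment can start. For mt-Atp8, of 204 bases, this was 17.2, 13.0 and 9.77 bases in the alignment table and 48.5, 49.1 and 44.2 in the FASTQ table. For mt-Co1, of 1545 bases, it was 1285, 1265 and 1256 bases in the alignment table and 1281, 1309 and 1297 in the FASTQ table. Per annotated length, mt-Atp8 was at 0.399, 0.433 and 0.407 times mt-Atp6 with its copy in the alignment table, and by TPM it was at 2.90, 3.97 and 4.87 times mt-Atp6 with its copy. In the FASTQ table the same TPM ratio was 0.960, 1.18 and 1.19. By TPM, all members took 2.66%, 4.20% and 4.15% of the alignment table and 1.91%, 3.01% and 3.05% of the FASTQ table. For members short beside the fragments, mt-Atp8, mt-Nd3 and mt-Nd4l, TPM depends on this length, and a level per annotated length leaves it out. In the FASTQ table mt-Nd4l stood at 0.514, 0.482 and 0.545 times mt-Nd4 with its copy per annotated length. By TPM of the FASTQ table it stood at 1.36, 1.13 and 1.38 times mt-Nd4. The labels give a library size range of 250 to 400.

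The tRNA genes, 59 to 75 bases long, were at 0 counts and at an effective length of 0 in all 3 libraries of the alignment table, so these zeros set no limit on their RNA. Of the 22, 15 had a count in the FASTQ table in at least 1 library and 7 were at 0 in all. Of the 8 on the minus strand, 7 had counts in all 3 libraries, and of the 14 on the plus strand, 2 did. The minus strand tRNAs together held 540, 863 and 1041 counts, and the plus strand tRNAs 8, 7 and 5. The minus strand sum was the larger one in all 3 libraries. No source used here says whether counting used strand, so the strand named is that of the gene and not of the RNA.

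Most of the minus strand counts belonged to mt-Tp, the tRNA for proline, at 349, 794 and 1010 counts. The gene lies at bases 15356 to 15422 of chromosome M on the minus strand, where it is the last of the 37 genes in mitochondrial numbering; its sequence is shown because it held more counts than all other tRNAs together in each library.
mt-Tp: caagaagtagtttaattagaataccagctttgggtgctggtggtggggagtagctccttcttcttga
Without mt-Tp the minus strand tRNAs held 191, 69 and 31 counts. mt-Tc, for cysteine, was at 80, 24 and 9 counts, mt-Ts1, for serine, at 45, 9 and 7, and mt-Te, for glutamate, at 27, 8 and 1. These 3 were highest in replicate 1, whereas mt-Tp was lowest there. In these counts a mature tRNA and a longer RNA that crosses the gene cannot be told apart.

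**Figure D5:**
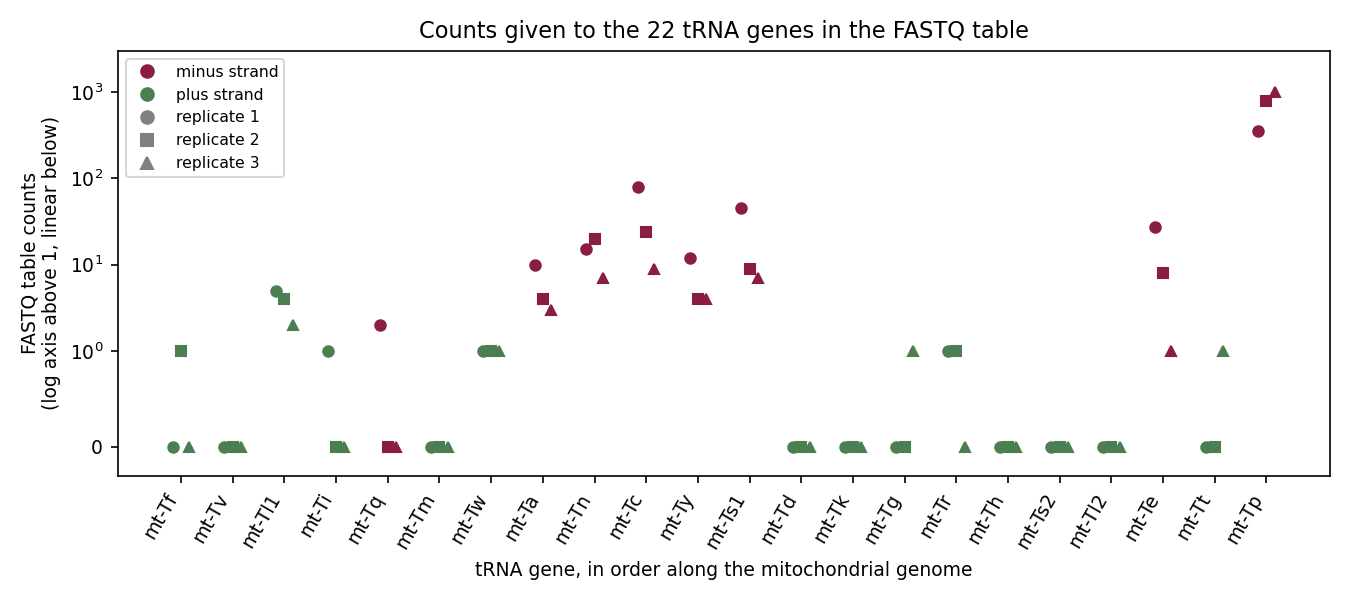
Counts of the 22 mitochondrial tRNA genes in the FASTQ table, by replicate, on an axis that is logarithmic above 1 and linear below; colours give the strand. mt-Tp reaches 349 to 1010 counts, and the 14 plus strand genes stay at 5 or below.

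The replicates differed in their level of the members as a group. With copies added and scaled to the library total, replicate 2 was highest for 15 of 15 coding and rRNA members and replicate 1 lowest for 14 of 15 in the alignment table, with mt-Nd6, lowest in replicate 3, as the exception. Over the 15 members the median log2 difference from the mean of the replicates was -0.34, 0.25 and 0.01 in replicates 1, 2 and 3. The coefficient of variation over the 3 libraries ranged from 7.62% (mt-Nd5) and 8.15% (mt-Co1) to 54.7% (mt-Nd3), with a median of 20.0%. Among 1845 protein-coding genes with at least 100 CPM (counts per 1e+06) the median was 10.7%. Replicate 1 is also the library with the fewest counts and the lowest ratio of alignment to FASTQ totals, and the part of these in its lower level was not tested. In bulk samples, fewer mitochondrial transcripts per cell and fewer cells rich in them cannot be told apart.

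The nuclear genes that serve the mitochondrial transcripts were measured in the same libraries, by lists chosen with earlier results of these data known. Of 15 genes of mitochondrial transcription and DNA maintenance, 13 reached 1 TPM in all libraries, with a median of 4.65 TPM; highest were Ssbp1, which binds single-stranded mitochondrial DNA (30.2 ± 3.48 TPM, SD, n = 3), and the packaging and transcription factor Tfam (19.7 ± 1.97). Mterf2 of the mTERF family was lowest at 0.157 ± 0.115 TPM. Of 22 genes of RNA processing, stability and decay, all reached 1 TPM, with a median of 11.5 TPM; Slirp, the partner of Lrpprc in stabilising messenger RNAs, was highest (133 ± 21.9 TPM), followed by the oligoribonuclease Rexo2 (73.4 ± 5.20), and Fastkd1 was lowest (3.03 ± 0.540).

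Of 16 genes of mitochondrial translation and membrane insertion, 15 were matched and all 15 reached 1 TPM, with a median of 14.2 TPM, led by the elongation factor Tufm (40.7 ± 5.34 TPM) and the ribosomal protein gene Mrpl12 (30.1 ± 2.63); the release factor gene Mtrf1 was lowest (5.21 ± 0.624). All 24 assembly factors reached 1 TPM, with a median of 15.6 TPM; the copper chaperone Cox17 for the oxidase was highest (310 ± 17.3 TPM), followed by the complex III factor Uqcc2 (97.0 ± 23.0), and Sco2, another copper chaperone, was lowest (3.54 ± 0.355). All 25 nuclear partners in the respiratory complexes reached 1 TPM, with a median of 128 TPM; the ATP synthase subunit gene Atp5b (618 ± 30.7 TPM) and the oxidase subunit gene Cox5a (586 ± 32.3) were highest and the complex I subunit gene Ndufv1 lowest (31.1 ± 5.16). mt-Co1, at 7911 ± 707 TPM, lay above Atp5b in all 3 libraries on the same scale.

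Between the tables, 12 of the 100 nuclear genes tested on these lists had more scaled counts in the alignment table and 2 had fewer. Of all genes tested, 6.61% and 12.1% did. Of the 12, 9 were among the 25 nuclear partners, 2 were assembly factors of 24 tested (Cox17 and Atpaf1, a factor for ATP synthase) and 1 of the 22 RNA processing genes was Slirp. The 2 with fewer were both among the 14 tested transcription and maintenance genes, the polymerase accessory subunit gene Polg2 and Mterf3. Of the 15 translation genes 0 passed in either direction by edgeR, with 3 higher and 1 lower by the unadjusted p under 0.05. All log2 ratios on the 5 lists lay between -0.46 and 0.20, while the 5 members matched nearly whole by a copy lay between -4.42 and -1.47.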

How the data were processed

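RNA-seq of polyadenylated RNA from 3 macrophage samples was analysed from the deposited tables. Per the labels and the file lists deposited with the samples, libraries came from 1 µg RNA, with the assembly mm10 and annotation M21. Which programs made the tables is not stated in the sources used. The tables from alignments hold, per the file headers, expected counts, posterior mean counts with their SD, TPM with interval bounds (the deposited signal values, not used) and FPKM (deposited, not used). Those from FASTQ files hold, per the file headers, TPM and estimated counts of transcripts, which were summed here per gene. PhiX and other entries that name no mouse gene took at most 0.178% of counts and were left out.

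Members and gene lists were chosen with earlier results of these data known. Copies were found by shared 31-base sequences in the annotated transcripts. Expected counts were rounded and tested with edgeR 4.0.16 in R 4.3.3 (TMM scaling, quasi-likelihood fit on table and replicate, mean count of at least 10, Benjamini-Hochberg adjustment at 0.05), after a check on simulated data; DESeq2 1.42.0 and limma 3.58.1 were alternatives. The replicate number pairs 2 tables of the same library. Library totals range from 23377091 to 40851328 mouse counts. A limit for a count of 0 (3 counts) would cover counting error only, and none is given. All 37 members are named, with the 10 copies of highest mean count and, per list, the 2 highest and the lowest gene by TPM; Lyz2, Csf1r, Adgre1, and the list genes that passed the test of the tables and are named with them, were added after their values were seen. Prorp was matched under an older symbol through RefSeq, and Mtrfr was not matched. A further list of cell type markers is not reported here. Other tools were Python 3.11.15, pandas 2.3.3, numpy 2.4.6, Biopython 1.88 and matplotlib 3.10.9.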

Additional observations from a re-analysis of the deposited data

How the results depend on the processing

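The percent of counts in the members was 3.67% of TPM in the alignment table and 2.66% in the FASTQ table, against 1.29% and 1.45% of counts; with 1 library left out it ranged from 1.22% to 1.37% and from 1.36% to 1.55%. The percent in nuclear copies was 38.3% and 27.8% by TPM, 25.9% with posterior mean counts (an alternative chosen after the data were seen), and ranged from 28.3% to 31% and from 17.0% to 20.2% with 1 library left out; a stricter share of 50% and 25-base sequences kept it within 1 SD. The median over 13 protein-coding members of log2(TPM + 1) was 10.08, and 10.18 in the FASTQ table. Single members moved in both directions between the tables. From the alignment to the FASTQ table, mt-Co3 went from 5.02 to 10.19, mt-Atp6 from 7.31 to 11.44 and mt-Atp8 from 14.01 to 11.86.

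The number of members with more counts in the alignment table after scaling was 5, and 8 with DESeq2 or with copy counts added. It was 0 without scaling, 0 with no replicate block and 0 to 5 with 1 library left out. The number with fewer was 9, and 14 when all genes with a mean count above 0 were tested, 3 with no replicate block, 4 with copy counts added and 8 to 9 with 1 library left out. The tRNA genes, at 0 throughout the alignment table, could only come out with fewer. All members that the count above 0 brought in, 30 tested against 18, were tRNA genes. With copy counts added, mt-Nd6 was the only one of the 4 that was not a tRNA gene. The pairing by replicate is that of 2 tables of 1 library. Fitted without scaling, the log2 ratio changed sign to -0.12 for mt-Rnr1, -0.15 for mt-Rnr2, -0.14 for mt-Nd1, -0.17 for mt-Nd2, -0.22 for mt-Co1, -0.15 for mt-Atp8, -0.17 for mt-Nd4, -0.16 for mt-Nd5 and -0.12 for mt-Cytb, with the median of all genes at -0.21. That of mt-Co1, 0.02, was -0.0061 with library totals and ranged from -0.031 to 0.035 with 1 library left out. With copy counts added it changed sign to 0.13 for mt-Co2, 0.055 for mt-Atp6, 0.13 for mt-Co3 and 0.11 for mt-Nd3, and with posterior mean counts to 0.172 for mt-Co3, while that of mt-Co2 went from -1.65 to -0.04 and no longer passed. The cause of these shifts was not tested. With 3 libraries and 1 group, no library could be tested as standing apart.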
